A study of Mus musculus with 15 samples.

Results

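Histone deacetylases are the enzymes that remove acetyl groups from lysines of histones and other proteins, and 10 genes of the zinc-dependent family (Hdac1, Hdac2, Hdac3, Hdac4, Hdac5, Hdac6, Hdac7, Hdac8, Hdac9 and Hdac11) were followed through 15 libraries of mouse medial prefrontal cortex (mPFC). The genes were chosen by name, by matching each Entrez identifier of the deposited count table to its mouse symbol. All 10 were found among the 27179 identifiers, and all 10 passed the filter on low counts, as did 16816 genes in all. The remaining zinc-dependent member, Hdac10, was kept apart as a related gene. Libraries came from C57BL/6J mice whose mPFC was dissected, with 4 groups set by ABX treatment and by stage relative to extinction, the fading of a conditioned fear response when its cue no longer predicts harm. The groups were ABX after extinction (post ABX, n = 4), non-ABX after extinction (post non-ABX, n = 4), ABX before extinction (pre ABX, n = 4) and non-ABX before extinction (pre non-ABX, n = 3, replicates 1, 3 and 4). ABX is the field's usual abbreviation for an antibiotic mixture; its composition and dose, the age and sex of the mice and whether each library is 1 animal were not given by the sources at hand, and p-values therefore cover only the variation among libraries, which may be technical. The extraction text of the labels speaks of sorted cells although the source is dissected tissue. Total counts ran from 44254906 to 57929503 per library.

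Zinc-dependent deacetylases fall into classes. Class I (Hdac1, Hdac2, Hdac3 and Hdac8) is mainly nuclear, and Hdac1, Hdac2 and Hdac3 are the catalytic subunits of corepressor complexes such as NuRD, Sin3, CoREST and NCoR. Class IIa (Hdac4, Hdac5, Hdac7 and Hdac9) has weak catalytic activity of its own, binds MEF2 transcription factors, and moves out of the nucleus when calcium-activated kinases phosphorylate the 14-3-3 docking sites. Class IIb Hdac6 is a cytoplasmic enzyme that acts on tubulin, and Hdac11 is the sole class IV member. In the brain Hdac2 and Hdac3 are known as limits on the formation of memory, Hdac4 and Hdac5 as shuttling repressors in neurons, and inhibitors of the family, among them the bacterial fermentation product butyrate, are known to ease fear extinction in rodents.

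The sequences shown are the start regions of the 3 class IIa genes whose values stood out in the comparisons, Hdac4 and Hdac5 between arms and Hdac9 between stages. They are RefSeq sequences of the GRCm38.p6 assembly, each from 250 bases before to 50 bases after an annotated start, on the minus strand, 5′ to 3′. Capitals mark GC boxes (GGGCGG or CCGCCC, the letters bound by Sp1-type factors), cyclic AMP response element cores (TGACG or CGTCA) and the MEF2 element, which was searched by its consensus after the sequences had been seen.

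Hdac4, chr1:92180292-92180591: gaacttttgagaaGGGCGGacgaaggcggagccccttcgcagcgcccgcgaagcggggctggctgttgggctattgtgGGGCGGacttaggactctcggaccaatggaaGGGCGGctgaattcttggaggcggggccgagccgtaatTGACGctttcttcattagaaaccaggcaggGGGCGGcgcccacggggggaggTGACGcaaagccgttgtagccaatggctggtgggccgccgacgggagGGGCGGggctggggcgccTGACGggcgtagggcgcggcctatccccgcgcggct

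Hdac5, chr11:102230123-102230422: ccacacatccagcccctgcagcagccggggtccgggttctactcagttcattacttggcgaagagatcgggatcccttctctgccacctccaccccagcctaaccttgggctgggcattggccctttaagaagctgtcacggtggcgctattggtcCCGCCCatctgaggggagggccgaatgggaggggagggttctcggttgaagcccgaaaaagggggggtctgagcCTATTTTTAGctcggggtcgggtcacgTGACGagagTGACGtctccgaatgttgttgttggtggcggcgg

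Hdac9, first start, chr12:34917046-34917345: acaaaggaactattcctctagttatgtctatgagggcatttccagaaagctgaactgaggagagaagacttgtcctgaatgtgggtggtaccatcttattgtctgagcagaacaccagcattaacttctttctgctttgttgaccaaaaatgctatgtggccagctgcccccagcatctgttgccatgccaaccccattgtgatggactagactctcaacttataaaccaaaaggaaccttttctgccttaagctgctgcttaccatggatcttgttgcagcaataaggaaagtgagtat

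Hdac9, second start, chr12:34528840-34529139: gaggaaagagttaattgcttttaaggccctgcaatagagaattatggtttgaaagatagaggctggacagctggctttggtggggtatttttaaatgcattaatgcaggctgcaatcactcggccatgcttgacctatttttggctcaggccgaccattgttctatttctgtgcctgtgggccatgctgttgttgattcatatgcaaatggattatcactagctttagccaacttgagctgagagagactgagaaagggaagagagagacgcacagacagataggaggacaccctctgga

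The Hdac4 window held 5 GC boxes and 3 cyclic AMP response element cores. Its GC content was 68.0% with 32 CpG dinucleotides, against a median of 52.7% and 7 CpG over 32851 promoter windows of the same length. The Hdac4 window lies inside the gene as RefSeq bounds it (91928779 to 92195702), downstream of its outermost start. The Hdac5 window held 1 GC box, 2 response element cores, 1 MEF2 element, 1 E-box (CACGTG, overlapping the first of these cores) and 18 CpG at a GC content of 60.7%. Both Hdac9 windows were poor in CpG, with 0 at the first start and 3 at the second, and held none of the letters searched. Over all 32851 windows 35.7% held a GC box, 20.8% a response element core, 7.15% the E-box and 3.19% a MEF2 element, counted on both strands. Windows were at hand for 8 of the 10 genes. Among the others printed by counts only, Hdac6 had 5 GC boxes, Hdac2 had 1 GC box and 36 CpG, Hdac11 had 1 GC box and 1 response element core, and the Hdac8 window had 6 CpG and none of the letters. The 4 windows of Hdac7 held 5 to 35 CpG, and 1 of them a GC box.

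Levels were compared between genes as CPM (counts scaled to a common library total with TMM factors) per kilobase of exon, with exon lengths of GENCODE M21 on mm10. Hdac11, on chromosome 6 from 91156670 to 91174692, had the highest level at 54.7 ± 6.31 CPM per kb (SD over 15 libraries). It was followed by Hdac3 at 28.9 ± 1.40 CPM per kb and Hdac2 at 17.7 ± 2.10 CPM per kb. Hdac6 at 12.7 ± 0.908 CPM per kb and Hdac5 at 11.9 ± 3.13 CPM per kb did not differ beyond their spread, and they changed places when the longest transcript was used as the length. Hdac7 stood at 5.92 ± 1.12 CPM per kb and Hdac9 at 3.74 ± 0.506 CPM per kb. At the low end Hdac8 at 2.41 ± 0.157, Hdac4 at 2.16 ± 0.407 and Hdac1 at 1.66 ± 0.133 CPM per kb lay close together, and the ranges of Hdac4 and Hdac1 overlapped. Class I thus held both a high and a low end of the order, with Hdac3 and Hdac2 near the top and Hdac1 at the bottom. The order was the same in the 4 groups except for 2 pairs of neighbours. Hdac6 ranked above Hdac5, and Hdac8 above Hdac4, in both ABX groups, and each pair was the other way round in both non-ABX groups. These swaps depended on the length used. With the longest transcript as the length, Hdac5 lay above Hdac6 and Hdac8 above Hdac4 in all 4 groups. How reads shared between Hdac1 and related sequences were counted is not stated, so its level is uncertain.

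**Figure D1:**
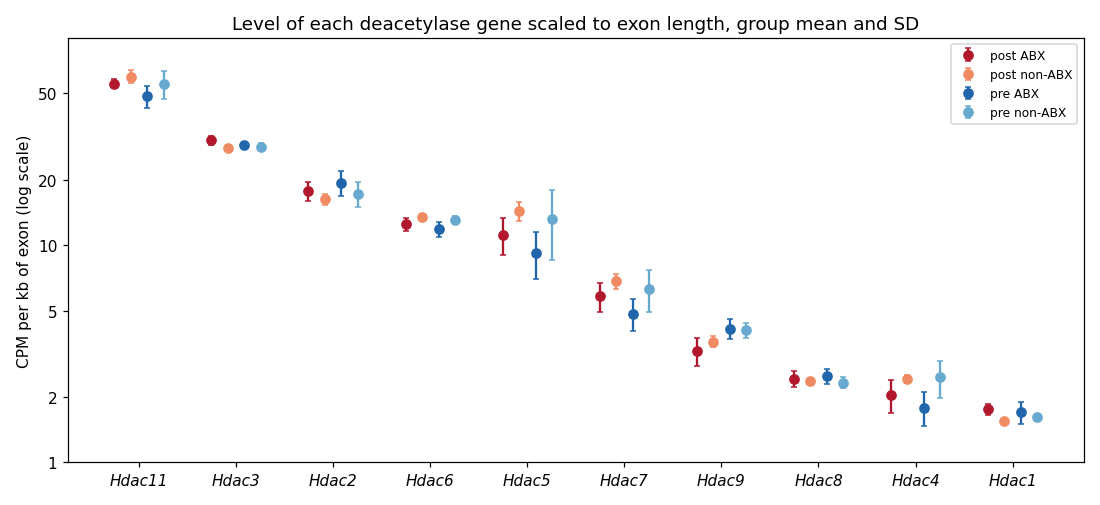
Level of each deacetylase gene in CPM per kb of exon on a log axis, for the 4 groups (points, group means; bars, SD over 4 libraries, 3 in pre non-ABX). Hdac11 was highest at 54.7 CPM per kb over all libraries and Hdac1 lowest at 1.66 CPM per kb.

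Differences between groups were tested with edgeR's quasi-likelihood test across all 16816 genes, with Benjamini-Hochberg adjustment over all of them and a call at an adjusted p under 0.05. No deacetylase gene passed in any of the 7 contrasts. For ABX against non-ABX the count was 0 of 10 before extinction (0.00595% of all genes called), 0 of 10 after extinction (0.0178%) and 0 of 10 with the stages averaged (0.624%). For post against pre extinction it was 0 of 10 in ABX libraries (0.0951%), 0 of 10 in non-ABX libraries (0%) and 0 of 10 with the arms averaged (0.963%), and for the interaction it was 0 of 10 (0%). At an unadjusted p under 0.05 there were 3 of 10 genes for ABX before extinction (16% of all genes), 1 after extinction (13.3%) and 5 with stages averaged (30.6%). The counts at this level for stage were 1 of 10 in ABX libraries (16.6%), 0 in non-ABX libraries (4.94%) and 2 with arms averaged (20.4%), and 0 for the interaction (2.06%). DESeq2 called 3 of 10 for ABX averaged over stages (Hdac4, Hdac5 and Hdac7; 11.8% of all genes) and 1 of 10 for stage averaged over arms (Hdac9; 4.19%), and none elsewhere. The voom fit of limma with sample quality weights called 5 of 10 for stage averaged over arms (Hdac2, Hdac5, Hdac7, Hdac9 and Hdac11), where it called 37.8% of all genes. It also called Hdac9 for stage in ABX libraries (2.77% of all genes) and in non-ABX libraries (19%), and none elsewhere.

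By the other measure, libraries of one group all above or all below those of the other, ABX and non-ABX did not overlap in 1 of 10 genes before extinction (Hdac4; 6.76% of all genes) and 2 of 10 after extinction (Hdac1 and Hdac4; 11.1%). With the stages pooled it was 0 of 10 (0.511%). Post and pre libraries did not overlap in 0 of 10 genes in ABX (5.47%), 0 of 10 in non-ABX (5.91%) and 0 of 10 with the arms pooled (0.309%). Among 10 genes a count of 1 or 2 is close to these shares, so nothing is read from it about the family.

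The median log2 fold change of the 10 genes for ABX averaged over stages was -0.09, beside 0.01 over all genes tested. By class it was 0.10 for the 4 class I genes, all positive, and -0.33 for the 4 class IIa genes, all negative. For stage averaged over arms the medians were 0.04 for the 10 genes and 0.00117 for all genes. In a bulk sample fewer cells of a type and less RNA per cell cannot be told apart.

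Hdac4, a class IIa corepressor on the minus strand of chromosome 1 (91928779 to 92195702), was the one member whose ABX libraries lay apart from its non-ABX libraries at both stages. After extinction it had 24.1, 34.3, 35.3 and 36.1 CPM in ABX libraries, against 36.4, 40.0, 38.7 and 37.9 CPM in non-ABX libraries. Before extinction it had 21.5, 32.4, 27.2 and 32.0 CPM in ABX libraries, against 34.7, 47.7 and 34.5 CPM in non-ABX libraries. Within each stage every ABX library lay below every non-ABX library, a pattern shared by 0.773% of all genes tested. After extinction the separation was narrow, with the nearest libraries at 36.1 and 36.4 CPM. Counting error there was up to 2.97% per ABX and 2.33% per non-ABX library. Averaged over stages the level was 30.4 ± 5.44 CPM in ABX libraries (SD, n = 8) and 38.5 ± 4.52 CPM in non-ABX libraries (SD, n = 7). The log2 fold change was -0.35 (SE 0.105, 95% interval -0.57 to -0.13, edgeR adjusted p = 0.0709), which did not pass. The single-stage values were -0.46 (SE 0.154, adjusted p = 0.311 by edgeR) before extinction and -0.24 (SE 0.143, adjusted p = 0.448 by edgeR) after it. It passed in DESeq2 (adjusted p = 0.026) and without pre ABX replicate 4 (edgeR adjusted p = 0.032), where 18.2% of all genes passed. Leaving out other single libraries gave edgeR adjusted p up to 0.263 and a log2 fold change as small as -0.26. ABX libraries differed among themselves, as post ABX replicate 1 and pre ABX replicate 1 were the lowest of their groups. Stage made less of a difference, with 35.3 ± 4.91 CPM after (SD, n = 8) and 32.9 ± 8.03 CPM before extinction (SD, n = 7). Of the exon length of Hdac4, 22.4% overlaps the noncoding gene Gm26720 on the other strand, and the library kit does not keep strand, so reads of the 2 genes in that stretch cannot be told apart.

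Hdac5, a neuronal class IIa repressor with known roles in reward and memory (chromosome 11, 102195747 to 102230172), showed the largest negative fold change for ABX among the 10 genes and also the widest spread. After extinction it had 87.7, 77.4, 110.1 and 117 CPM in ABX libraries, against 127, 143, 117 and 115 CPM in non-ABX libraries. Ahead of extinction its levels were 57.3, 87.9, 76.0 and 104 CPM in ABX libraries, against 98.2, 163 and 87.6 CPM in non-ABX libraries. The groups overlapped at both stages, and pre non-ABX replicate 3 was far above the other 2 of its group. The log2 fold change averaged over stages was -0.44 (SE 0.142, 95% interval -0.74 to -0.14, edgeR adjusted p = 0.0782). Single-stage values were -0.52 before and -0.36 after extinction, with edgeR adjusted p of 0.311 and 0.411. For stage averaged over arms Hdac5 stood at 0.19 (SE 0.143, adjusted p = 0.414 by edgeR).

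Hdac7, the class IIa gene best known for its part in vascular endothelium (chromosome 15, 97792661 to 97844502), had a pattern like that of Hdac5. After extinction it had 33.2, 34.9, 43.6 and 45.5 CPM in ABX libraries, against 45.2, 50.3, 46.9 and 41.7 CPM in non-ABX libraries. The pre extinction libraries had 29.2, 31.8, 29.2 and 40.5 CPM in ABX libraries, against 40.2, 53.0 and 34.6 CPM in non-ABX libraries. Of the ABX libraries 1 reached into the non-ABX range before extinction, and 2 did so after it. The log2 fold change averaged over stages was -0.30 (SE 0.102, 95% interval -0.52 to -0.09, edgeR adjusted p = 0.081). For stage averaged over arms it was 0.19 (SE 0.102, adjusted p = 0.284 by edgeR). Without pre ABX replicate 4 both Hdac5 and Hdac7 passed for ABX (edgeR adjusted p of 0.0302 and 0.0277), as they did without pre non-ABX replicate 4 (0.0487 and 0.0494), and Hdac6 passed as well without pre ABX replicate 4 (0.0434). Of all genes, 18.2% passed without pre ABX replicate 4 and 6.2% without pre non-ABX replicate 4, against 0.624% with all libraries. Leaving out other single libraries gave edgeR adjusted p up to 0.296 for Hdac5, 0.3015 for Hdac7 and 0.317 for Hdac6. The log2 fold changes were then as small as -0.27, -0.21 and -0.11.

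Markers of endothelial cells differed in the same contrast. All 15 endothelial markers had a negative log2 fold change for ABX averaged over stages, 7 of 15 passed (0.624% of all genes), and the median was -0.41 (-0.40 with a correction for GC content, described with the GC values). Their summed level was 247 to 333 CPM in post ABX libraries and 345 to 367 CPM in post non-ABX libraries. Before extinction it was 234 to 338 CPM in ABX libraries and 348 to 383 CPM in non-ABX libraries. None of the 15 was at 0. Of 10 markers of pericytes and smooth muscle, 9 were negative and 4 passed, with a median of -0.45. Astrocyte markers summed to 6323 to 6777 CPM in post ABX and 5730 to 6086 CPM in post non-ABX libraries. The sums were 6017 to 8315 CPM in pre ABX and 5730 to 6559 CPM in pre non-ABX libraries. Of the 10 astrocyte markers 6 were positive and 4 negative for ABX averaged over stages, with a median of 0.05 and 0 of 10 called. The part of these cells in the values of Hdac7 or of the other deacetylase genes was not tested. The 10 excitatory neuron markers summed to 7502 to 8395 CPM in post ABX, 7775 to 8859 CPM in post non-ABX, 6520 to 7925 CPM in pre ABX and 7212 to 8821 CPM in pre non-ABX libraries, none of them was at 0, and 0 of 10 passed for ABX.

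Hdac9, the class IIa gene known from mouse muscle and neurons as a repressor regulated by electrical activity (chromosome 12, 34047580 to 34917095), had the stage value of largest size among the 10 genes. In ABX libraries it had 44.2, 57.0, 48.5 and 40.8 CPM after extinction, against 59.5, 62.0, 68.3 and 52.4 CPM before extinction. In non-ABX libraries it had 48.7, 51.8, 54.8 and 55.5 CPM after extinction, against 64.2, 54.6 and 59.4 CPM before extinction. The stages overlapped in both arms, by 1 library on each side in ABX libraries. The level was 50.2 ± 5.71 CPM after extinction (SD, n = 8) and 60.1 ± 5.45 CPM before it (SD, n = 7). The log2 fold change averaged over arms was -0.26 (SE 0.073, 95% interval -0.41 to -0.10, edgeR adjusted p = 0.096), which did not pass. In ABX libraries alone it was -0.35 (SE 0.0996, adjusted p = 0.16 by edgeR) and in non-ABX libraries -0.17 (SE 0.107, adjusted p = 0.896 by edgeR). DESeq2 gave an adjusted p of 0.0296 for the average and voom 0.00301. It passed without pre ABX replicate 4 (edgeR adjusted p = 0.0346), without pre non-ABX replicate 3 (0.0374) and without post ABX replicate 2 (0.0398), where 4.45%, 13.3% and 1% of all genes passed. Leaving out other single libraries gave edgeR adjusted p up to 0.272 and a log2 fold change as small as -0.22. Summed levels of striatal neuron markers did not overlap between stages in either arm, at 233 to 270 CPM after and 201 to 209 CPM before extinction in ABX libraries, and 245 to 279 CPM after and 197 to 219 CPM before it in non-ABX libraries. These sums are without GC correction, and none of the 7 markers was at 0. For stage averaged over arms 5 were positive and 2 negative, and 1 passed, higher after extinction (0.963% of all genes). Their median was 0.17, and 0.03 with the GC correction. In the same contrast 1 of 7 oligodendrocyte precursor markers passed, higher after extinction, and 1 of 10 astrocyte markers, lower. The part of these cells in the values of Hdac9 was not tested. Beside the other 3 class IIa genes Hdac9 had a small ABX value, -0.06 (SE 0.0731, adjusted p = 0.591 by edgeR).

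**Figure D2:**
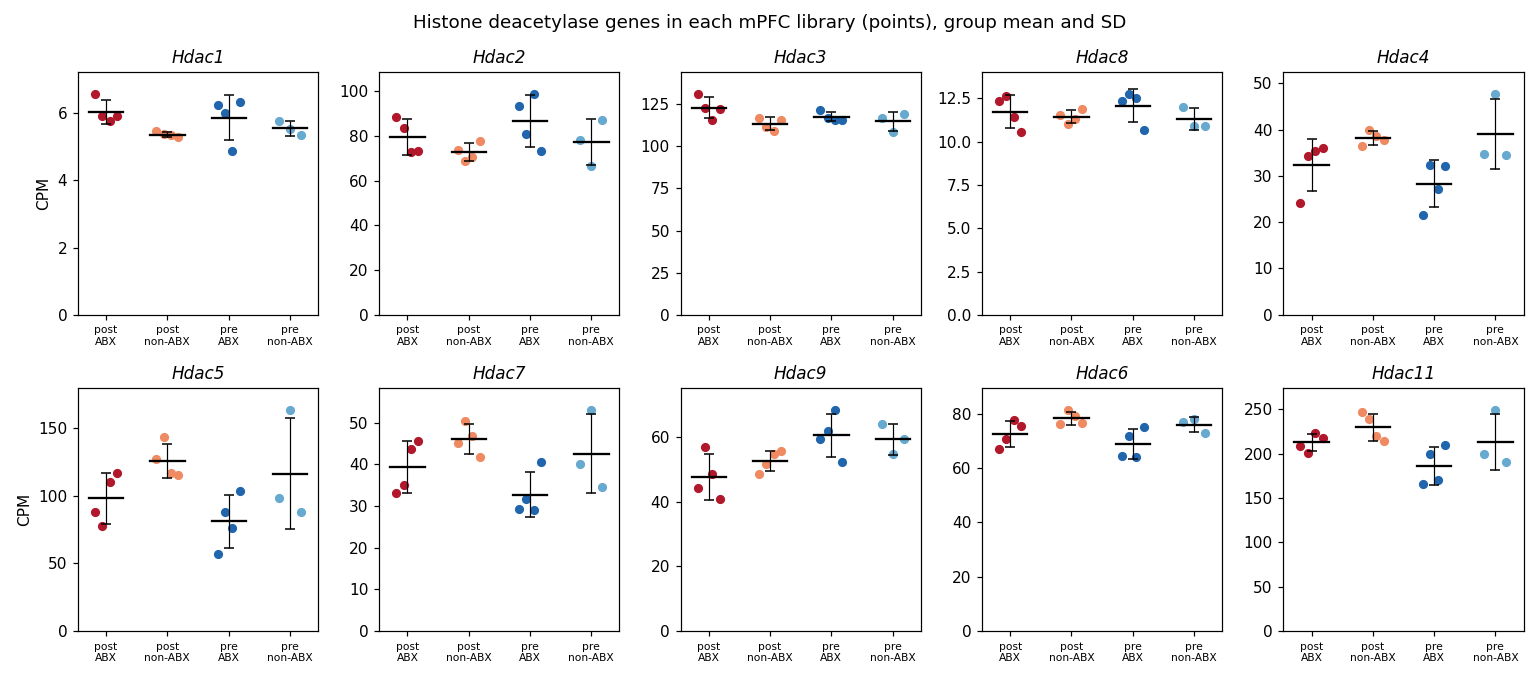
CPM of the 10 deacetylase genes in each library (points, in replicate order) with the group mean (line) and SD (bar); vertical axes start at 0. Every ABX library of Hdac4 lay below every non-ABX library of the same stage, and Hdac9 averaged 50.2 CPM after and 60.1 CPM before extinction.

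The class I genes varied by 4.83 to 11.9% over the 15 libraries (coefficient of variation of CPM), against 13.6 to 26.3% for the class IIa genes. Hdac1 (chromosome 4, 129516104 to 129542646), a catalytic subunit shared by NuRD, Sin3 and CoREST, had 6.58, 5.93, 5.78 and 5.92 CPM in post ABX libraries, against 5.47, 5.37, 5.35 and 5.29 CPM in post non-ABX libraries. These groups did not overlap, with every ABX library higher. Before extinction the values were 6.24, 6.01, 4.89 and 6.33 CPM in ABX libraries, against 5.78, 5.54 and 5.35 CPM in non-ABX libraries, and the groups overlapped through pre ABX replicate 3. The log2 fold change was 0.17 (SE 0.0891, adjusted p = 0.399 by edgeR) after extinction and 0.13 (SE 0.0655, adjusted p = 0.201 by edgeR) averaged over stages. With 229 to 335 counts per library its counting error alone was up to 6.61% per library, the highest among the 10 genes.

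Hdac2 (chromosome 10, 36974297 to 37001889), the class I enzyme known as a brake on synaptic plasticity, had 88.6, 83.6, 72.6 and 73.0 CPM in post ABX libraries, against 73.7, 68.7, 70.4 and 77.6 CPM in post non-ABX libraries. In pre extinction libraries it had 93.3, 81.0, 98.7 and 73.3 CPM in ABX libraries, against 78.0, 66.6 and 86.8 CPM in non-ABX libraries. The groups overlapped at both stages. Averaged values were 0.15 (SE 0.0741, adjusted p = 0.186 by edgeR) for ABX and -0.11 (SE 0.0739, adjusted p = 0.386 by edgeR) for stage.

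Hdac3, the enzyme of the NCoR complex (chromosome 18, 37936971 to 37955015), varied least, with a coefficient of variation of 4.83% over 15 libraries. It had 131, 123, 116 and 122 CPM in post ABX libraries, against 117, 112, 109 and 116 CPM in post non-ABX libraries. Before extinction it had 122, 117, 116 and 116 CPM in ABX libraries, against 117, 109 and 119 CPM in non-ABX libraries. Its averaged ABX value was 0.07 (SE 0.0398, 95% interval -0.00950 to 0.16, edgeR adjusted p = 0.208). After extinction the value was 0.12 (SE 0.054, adjusted p = 0.366 by edgeR).

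Hdac8, the X-linked class I enzyme that deacetylates the cohesin subunit Smc3, had 12.4, 12.7, 11.4 and 10.5 CPM in post ABX libraries, against 11.5, 11.01, 11.3 and 11.9 CPM in post non-ABX libraries. Its pre extinction levels were 12.3, 12.8, 12.6 and 10.7 CPM in ABX libraries, against 12.02, 10.9 and 10.9 CPM in non-ABX libraries. The averaged ABX value was 0.07 (SE 0.0585, adjusted p = 0.43 by edgeR), and the stage value was -0.01 (SE 0.0585, adjusted p = 0.918 by edgeR).

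Hdac6 (chromosome X, 7930116 to 7948047), the tubulin deacetylase of class IIb, had 66.9, 70.6, 77.7 and 75.4 CPM in post ABX libraries, against 76.4, 81.3, 79.2 and 76.5 CPM in post non-ABX libraries. In the pre extinction groups it had 64.4, 71.7, 64.2 and 75 CPM in ABX libraries, against 76.9, 78.2 and 72.7 CPM in non-ABX libraries. Only 1 ABX library per stage reached the non-ABX range. Its averaged ABX value was small but narrow in error, at -0.13 (SE 0.048, 95% interval -0.23 to -0.02, edgeR adjusted p = 0.106).

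Hdac11, the class IV enzyme that removes long fatty acyl groups and is abundant in brain, had 209, 201, 224 and 218 CPM in post ABX libraries, against 247, 239, 219.5 and 215 CPM in post non-ABX libraries. Before extinction the levels were 166, 199, 171 and 209 CPM in ABX libraries, against 199.7, 249 and 191 CPM in non-ABX libraries. The groups overlapped at both stages. Averaged values were -0.15 (SE 0.0672, adjusted p = 0.14 by edgeR) for ABX and 0.15 (SE 0.0673, adjusted p = 0.228 by edgeR) for stage. The stage value passed without pre non-ABX replicate 3 (edgeR adjusted p = 0.0418; 13.3% of all genes). Leaving out other single libraries gave edgeR adjusted p up to 0.512. Part of its exon length, 15.4%, overlaps the predicted transcript Gm44002 on the other strand. Hdac10, the class IIb gene outside the 10, had -0.13 for ABX (SE 0.0799, adjusted p = 0.261 by edgeR) and 0.19 for stage (SE 0.0801, adjusted p = 0.205 by edgeR).

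For the interaction, the question whether ABX made a different difference after extinction than before it, the largest value was that of Hdac4 at 0.22 (SE 0.21, 95% interval -0.22 to 0.67). Hdac9 stood at -0.17 (SE 0.146, 95% interval -0.48 to 0.14). All 10 adjusted p were 0.9999 (edgeR), and 0 genes passed over the whole table (346 at an unadjusted p under 0.05, and 4 by DESeq2), so neither a difference between stages in the ABX values nor its absence was shown.

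The level of most members correlated with the GC dependence of the library. For each library the dependence of expression on GC was measured as a slope over all genes, in log2 units per 10 percentage points of GC. The members are among these genes, and whole classes of like GC shift with the slope. The r with the slope are therefore a description. They are not set beside those of all genes, and nothing particular to the members is read from them. Slopes averaged 0.00633 ± 0.134 in post ABX (SD, n = 4), 0.17 ± 0.102 in post non-ABX (SD, n = 4), -0.21 ± 0.202 in pre ABX (SD, n = 4) and 0.04 ± 0.245 in pre non-ABX libraries (SD, n = 3). They ran from -0.41 in pre ABX replicate 1 to 0.32 in pre non-ABX replicate 3, and the mean slope was lower in ABX than in non-ABX groups at both stages and higher after than before extinction in both arms. Hdac7 at 60.2% GC, Hdac5 at 59.8% and Hdac11 at 57.4% have the most GC-rich longest transcripts of the 10, and Hdac2 at 41.9% and Hdac8 at 43.0% the poorest.

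Across the 15 libraries log2 CPM rose with the slope for Hdac5 (Pearson r = 0.97, Spearman rho = 0.97), Hdac11 (r = 0.97, rho = 0.98) and Hdac7 (r = 0.97, rho = 0.96). For each of these r and rho the two-sided permutation p was 1e-05, the smallest that 100000 permutations can give, and 2e-05 or 2.5e-05 after adjustment over the 10 genes. The permutations shuffled libraries across the groups, whose mean slopes differ. Without the 2 libraries farthest from the median slope (pre ABX replicates 1 and 3) r was 0.97, 0.94 and 0.96 for these 3 genes. Hdac6 (r = 0.90, rho = 0.88, adjusted permutation p of 2e-05 and 0.00015) and Hdac4 (r = 0.84, rho = 0.88, adjusted permutation p of 0.000133 and 0.0001) also rose with it, with r of 0.79 and 0.71 without those 2 libraries. Hdac2 fell (r = -0.95, rho = -0.93, adjusted permutation p of 2e-05 and 2.5e-05), with -0.92 without them. Hdac8 (r = -0.67), Hdac9 (r = -0.54) and Hdac3 (r = -0.53) had adjusted permutation p of 0.00913, 0.0454 and 0.0454, with rho of -0.59, -0.64 and -0.54 (0.0298, 0.0176 and 0.0443). Without the same 2 libraries r was -0.60 for Hdac8, -0.65 for Hdac3 and -0.36 for Hdac9, whose relation thus rests in part on them. Hdac1 showed no clear relation (r = -0.18, rho = -0.24, adjusted permutation p of 0.535 and 0.397, and r = -0.44 without those 2). Within groups, as deviations from the group means, r was 0.97 for Hdac5, 0.95 for Hdac11, 0.94 for Hdac7, -0.93 for Hdac2, 0.83 for Hdac6, 0.78 for Hdac4, -0.66 for Hdac8, -0.65 for Hdac3, -0.59 for Hdac9 and 0.15 for Hdac1.

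Among all tested genes of at least 58% GC the median log2 fold change for ABX averaged over stages was -0.30, Hdac7 was at -0.30 too, and Hdac5 lay within their 10th to 90th percentile range (-0.55 to -0.07). Among genes of 50 to 54% GC the median was -0.03 with a 10th percentile of -0.22, and Hdac4 at -0.35 lay below it while Hdac6 at -0.13 lay inside. Among genes of 42 to 46% GC the stage median averaged over arms was -0.09 with a 10th percentile of -0.23, and Hdac9 at -0.26 lay below it. Hdac4 for ABX and Hdac9 for stage were the only values of the 10 genes in these 2 contrasts outside the 10th to 90th percentile range of their GC class, apart from Hdac9 for ABX, which at -0.06 lay just below -0.04.

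**Figure D3:**
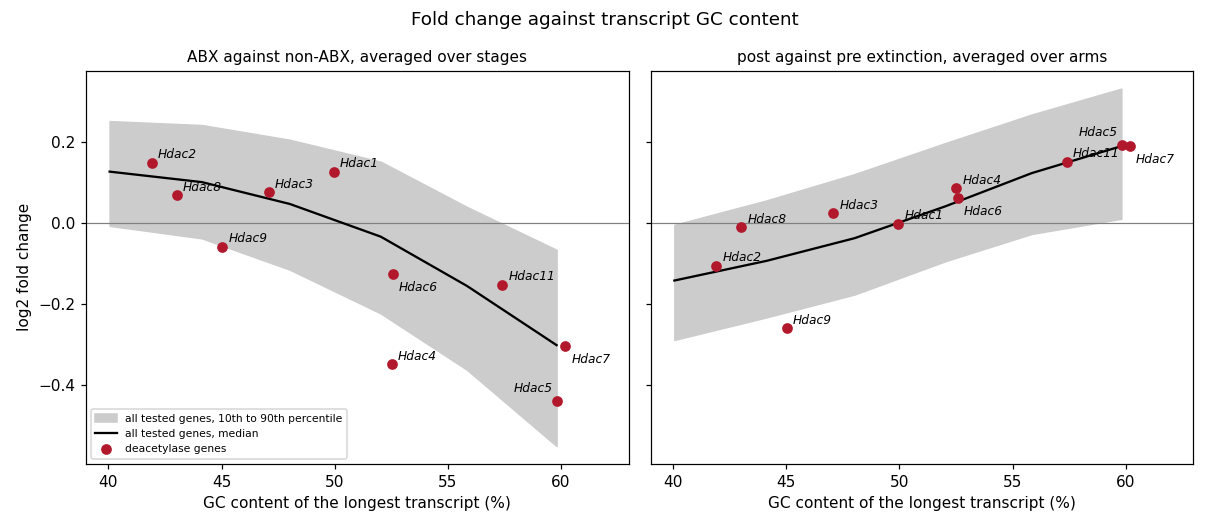
Log2 fold change against the GC content of the longest transcript, for ABX against non-ABX averaged over stages (left) and post against pre extinction averaged over arms (right); the line is the median and the band the 10th to 90th percentile of all tested genes in 6 GC classes. Hdac4 (-0.35) lay below the band on the left and Hdac9 (-0.26) on the right, while Hdac5 and Hdac7 lay inside.

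A spline then took out the trend of expression with GC over all genes in each library (15332 genes with a GC value), which left 0 of 10 genes called for ABX (4.2% of all genes) and 0 of 10 for stage (2.23%). Single genes could still follow the library slope afterwards. With the correction r with the slope was 0.85 for Hdac5, 0.75 for Hdac4, -0.65 for Hdac11, 0.61 for Hdac8, 0.55 for Hdac6 and -0.46 for Hdac2, and between -0.19 and 0.27 for Hdac1, Hdac3, Hdac7 and Hdac9. In this fit the ABX value of Hdac7 was -0.00832 (SE 0.0409, adjusted p = 0.924 by edgeR) and that of Hdac11 was 0.06 (SE 0.0343, adjusted p = 0.271 by edgeR). Hdac5 stood at -0.15 (SE 0.0534, adjusted p = 0.107 by edgeR) and Hdac2 at 0.03 (SE 0.0359, adjusted p = 0.638 by edgeR). Hdac4 was at -0.30 (SE 0.0854, adjusted p = 0.0538 by edgeR), and Hdac9 for ABX was -0.14 (SE 0.0564, adjusted p = 0.131 by edgeR). Hdac4 and Hdac5 still correlated with the library slope after the correction, and mean slopes differ between arms. An ABX difference and a remaining dependence on the slope cannot be told apart in their values. For stage Hdac9 was -0.18 (SE 0.0564, adjusted p = 0.111 by edgeR), while Hdac5, Hdac7 and Hdac11 were at 0.02, -0.00139 and 0.00297. The class IIa median for ABX was -0.15 with the correction, against -0.33 without it, and the class I median 0.02 against 0.10.

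**Figure D4:**
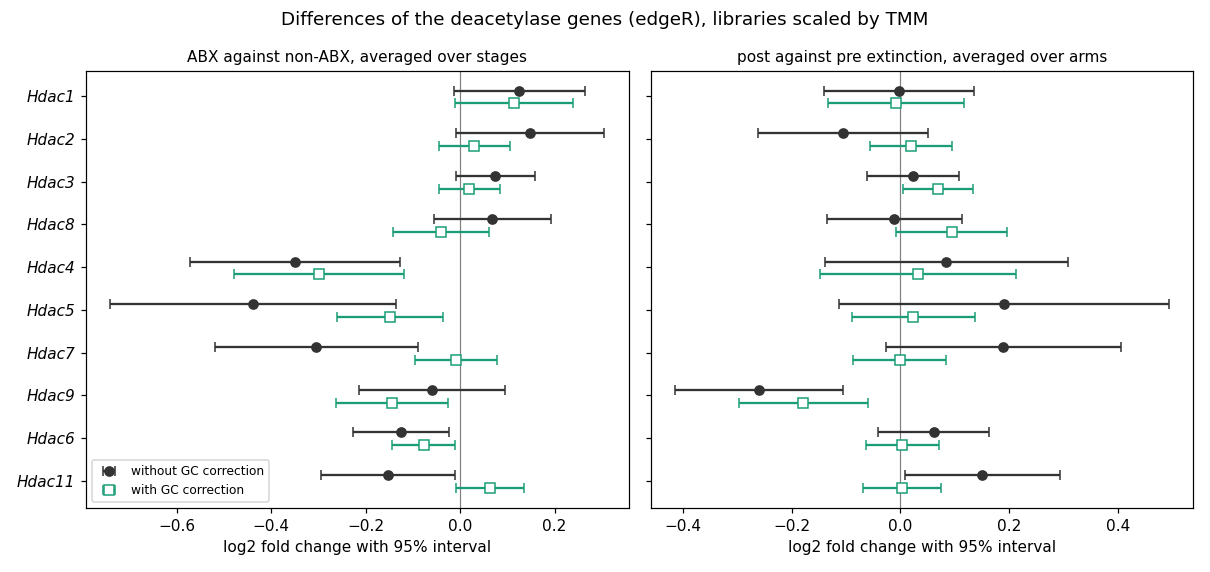
Log2 fold changes of the 10 genes with 95% intervals, without (filled circles) and with (open squares) correction for library GC dependence; left, ABX against non-ABX averaged over stages; right, post against pre extinction averaged over arms. Hdac4 was at -0.35 and -0.30 in the 2 fits for ABX, and Hdac7 at -0.30 and -0.00832.

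Across libraries some members moved together, some in opposite directions and others with little relation. The description here is Pearson's r of log2 CPM over 15 libraries, which differ in GC dependence and depth. It was 0.94 for Hdac5 with Hdac7, 0.93 for Hdac5 with Hdac11, 0.87 for Hdac4 with Hdac5 and -0.95 for Hdac2 with Hdac7. With the GC correction the same pairs stood at -0.27, -0.72, 0.77 and -0.45, and Hdac4 with Hdac6 was 0.88 without and 0.75 with it. Hdac1 with Hdac2 was 0.06 without and -0.09 with the correction, and Hdac3 with Hdac9 was -0.32 and -0.82. Hdac4, Hdac5 and Hdac6 all still correlated with the library slope after the correction, and its part in their corrected r was not tested. The genes of the whole table most like each member were taken from the 2 of highest r among 13298 genes. For Hdac9 they were Plcb1 (r = 0.95, and 0.93 with the GC correction), a phospholipase C of cortical neurons, and Grm7 (0.95 and 0.92), a presynaptic glutamate receptor. For Hdac4 they were Nisch (0.99 and 0.53) and Prrc2b (0.98 and 0.59), and for Hdac5 Csnk1g2 and Hspbp1 (0.99 and 0.94 each). For Hdac2 they were Rap2c (0.98 and 0.45) and the small GTPase Cdc42 (0.98 and 0.85). For Hdac3 they were the 14-3-3 gene Ywhaz (0.90 and 0.87) and the noncoding Gas5 (0.89, with no GC value), and for Hdac8 Gtf2e1 (0.91 and 0.90) and Nipsnap1 (0.91 and 0.02). Hdac1 was closest to Gpr25 (0.87 and 0.56) and Kif23 (0.87 and 0.76) and Hdac6 to Ubxn11 (0.95 and 0.73). For Hdac7 they were Myh7b (0.99 and 0.24) and Vwa5b2 (0.99 and 0.82), and for Hdac11 Aplp1 (0.99 and 0.77) and Atg101 (0.99 and -0.12).

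Genes that act with the deacetylases were taken as 93 genes in lists of complexes and pathways, of which 88 passed the filter on low counts. For ABX averaged over stages 0 of 88 passed, with a median of -0.03, beside 0.624% and 0.01 for all genes. Of the complexes of the class I enzymes, 0 of 13 NuRD, 0 of 13 Sin3, 0 of 7 CoREST, 0 of 5 NCoR and 0 of 3 MiDAC subunits passed. The subunits of smallest p in NuRD, Sin3, CoREST and MiDAC were Mta1 at -0.32 (edgeR adjusted p = 0.0708), Sap30 at 0.30 (0.0903), Hmg20b at -0.30 (0.115) and Trerf1 at -0.30 (0.0904). Of the class IIa circuit, 0 of 3 MEF2 factors, 0 of 14 kinases and 0 of 7 14-3-3 proteins passed for ABX, and the smallest p were those of Mef2d at -0.37 (edgeR adjusted p = 0.0767), Sik3 at -0.22 (0.0683) and Ywhag at -0.20 (0.06). The NAD-dependent sirtuins (0 of 7, Sirt6 at -0.47, edgeR adjusted p = 0.0942), the opposing acetyltransferases (0 of 10, Kat2a at -0.20, 0.0871) and the acetyl-lysine readers of the BET family (0 of 3) did not pass. With the GC correction Hmg20b turned to 0.02 and Kat2a to 0.02, while Mta1 was at -0.10, Sik3 at -0.12, Sirt6 at -0.22, Trerf1 at -0.23, Mef2d at -0.24 and Sap30 at 0.36, and none of these 8 passed. Ywhag passed in that fit, at -0.15 (edgeR adjusted p = 0.0493), beside 4.2% of all genes. Without pre ABX replicate 4, Ywhag, Sik3, Mta1, Mef2d, Kat2a, Trerf1 and Sirt6 passed (adjusted p of 0.0255 to 0.0356 by edgeR; 18.2% of all genes), and without pre non-ABX replicate 4 Ywhag did (0.0474; 6.2%). Over all single left-out libraries the highest edgeR adjusted p of these genes ran from 0.202 for Ywhag to 0.349 for Sirt6.

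For stage averaged over arms 2 of 88 passed, both lower after extinction (0.743% of all genes lower), with a median of 0.02. They were Slc16a1 and Slc16a7, the monocarboxylate carriers MCT1 and MCT2, which bring lactate, ketone bodies and short acids such as butyrate, the deacetylase inhibitor, across membranes. Slc16a1 had 27.0, 25.9, 22.7 and 27.8 CPM in post ABX libraries, against 33.6, 33.0, 32.3 and 32.4 CPM in pre ABX libraries. In non-ABX libraries it had 25.4, 22.8, 24.9 and 25.4 CPM after extinction, against 29.0, 27.1 and 31.9 CPM before it. The stages did not overlap within either arm. Of all genes, 2.78% in ABX and 3.57% in non-ABX libraries were lower after extinction without overlap. The share doing so in both arms is not given here. It fell to 25.2 ± 1.8 CPM after extinction (SD, n = 8), against 31.3 ± 2.38 CPM before it (SD, n = 7), with a log2 fold change of -0.30 (SE 0.0535, adjusted p = 0.0212 by edgeR). In the GC-corrected fit it was at -0.19 (edgeR adjusted p = 0.046). It did not pass without pre non-ABX replicate 1 (edgeR adjusted p = 0.0775), without pre non-ABX replicate 4 (0.0829) or without post non-ABX replicate 3 (0.0529).

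Slc16a7 had 9.92, 12.6, 9.93 and 8.52 CPM in post ABX libraries, against 14.2, 16.3, 17.5 and 12.2 CPM in pre ABX libraries. In non-ABX libraries it had 8.49, 11.2, 11.5 and 12.5 CPM after extinction, against 14.8, 12.2 and 16.5 CPM before it. One library at each end made the stages overlap in either arm. It fell to 10.6 ± 1.61 CPM after extinction (SD, n = 8), against 14.8 ± 2.11 CPM before it (SD, n = 7), with a log2 fold change of -0.48 (SE 0.107, adjusted p = 0.0416 by edgeR). This call was lost with the GC correction (-0.33, edgeR adjusted p = 0.0563). Leaving out single libraries gave edgeR adjusted p of 0.0167 to 0.154. The call was lost without pre ABX replicate 1, 2 or 3, pre non-ABX replicate 1 or 4, post ABX replicate 1, 3 or 4, or post non-ABX replicate 1, 2 or 3. The butyrate receptor genes Ffar2, Ffar3 and Hcar2 and the carrier Slc5a8 had 0 to 8 counts in each library and were not tested.

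**Figure D5:**
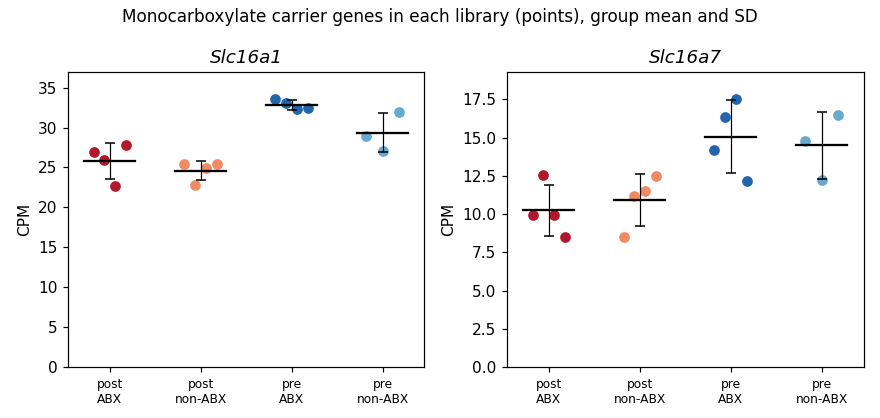
CPM of the carriers Slc16a1 and Slc16a7 in each library (points, in replicate order) with group mean (line) and SD (bar). Slc16a1 averaged 25.2 CPM after and 31.3 CPM before extinction, and its stages did not overlap within either arm (all genes lower without overlap: 2.78% in ABX, 3.57% in non-ABX libraries).

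The other lists held 0 calls for stage averaged over arms. The genes of smallest p were the Sin3 scaffold Sin3a at -0.17 (edgeR adjusted p = 0.0612) and, among the kinases that export class IIa enzymes from the nucleus, Camk4 at -0.27 (0.0725). Among sirtuins it was Sirt4 at 0.19 (edgeR adjusted p = 0.108), and 6 of 7 sirtuins were positive with a median of 0.17. Rcor1 of CoREST was at -0.15 (edgeR adjusted p = 0.172), Mef2c at -0.17 (0.189), Tbl1x of the NCoR complex at -0.13 (0.171) and Kat2a at 0.17 (0.2). With the GC correction Slc16a1 and 6 others passed, Sin3a (-0.15, edgeR adjusted p = 0.0238), its partner Arid4b (-0.16, 0.0282), the kinases Camk4 (-0.25, 0.0366), Sik1 (-0.56, 0.0156) and Prkd1 (0.21, 0.036), and Sirt7 (0.14, 0.0397), beside 2.23% of all genes. Leaving out pre non-ABX replicate 3 brought calls for Sin3a (adjusted p = 0.0286 by edgeR), Camk4 (0.0286), Sirt4 (0.0404), Kat2a (0.0477), Hdac10 (0.041) and the 14-3-3 gene Ywhaq (0.0473), where 13.3% of all genes passed. Leaving out pre ABX replicate 4 did so for Sin3a (0.0325 by edgeR) and Camk4 (0.0278), beside 4.45% of all genes, and post non-ABX replicate 4 for Camk4 (0.0367), beside 1.6%. Over all single left-out libraries the highest edgeR adjusted p of these genes ran from 0.2125 for Sin3a to 0.528 for Ywhaq. In the single-stage, single-arm and interaction contrasts 0 of 88 genes passed (edgeR).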

How the data were processed

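RNA from 15 mPFC libraries was sequenced after SMARTer Ultra Low Input V4 amplification, which does not keep strand, per the labels' protocols. The deposited values are raw counts per Entrez gene; CASAVA 1.8.2, STAR 2.3.0 and mm10 are named in the submitters' processing notes, while neither the counting program nor the annotation is named. Of 27179 identifiers 25275 matched a symbol (99.7% of counts). Low counts were removed with filterByExpr of edgeR (minimum count 10 and total 15), libraries scaled by TMM (0.9691 to 1.025), and 4 group means fitted with edgeR 4.0.16 in R 4.3.3, two-sided, with Benjamini-Hochberg adjustment at 0.05. Alternatives were other scaling, 2 other filters, DESeq2 1.42.0, voom of limma 3.58.1, a replicate block, GC correction (spline with 5 degrees of freedom on the GC of the longest GENCODE M21 transcript), both together, and 15 left-out libraries. Scripts were tested on simulated data. The members and gene lists were chosen with earlier results of these data known; of other genes, called ones and the one of smallest p per list were named, and further ones after their values were seen. Sequences are from RefSeq; that of Hdac3 and some genes the naming rules pick are not reported here.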

Additional observations from a re-analysis of the deposited data

Results flagged for a closer look

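In 2 of 30 groups of 4 libraries tested over the 10 genes, 1 library stood further from the rest than Dixon's limit allows, while chance flags about 1 in 20 groups. Hdac4 in post ABX replicate 1 had 24.1 CPM, and the nearest library of its group had 34.3 CPM. Hdac3 in pre ABX replicate 1 had 122 CPM, and the nearest library of its group had 117 CPM.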

How the results depend on the processing

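Replicate numbers are shared between groups by label. Same-numbered libraries correlated above 0.1 in 8 of 21 pairs (-0.49 to 0.37), against 23 of 63 differently numbered pairs. These correlations were taken without GC correction and carry the GC dependence of each library. They therefore cannot decide whether libraries of the same number share more than the number. Other scaling and a filter at a mean of 1 CPM kept the counts of calls within 1.5 times. For ABX averaged over stages, where 105 genes and 0 members were called, DESeq2 called 1977 genes and 3 members, voom 902 genes, the replicate block 666 genes and 1 member (Hdac4, adjusted p = 0.0335 by edgeR), the GC correction 644 genes, the block with GC correction 1741 genes and 2 members (Hdac4 at -0.33, adjusted p = 0.00565, and Hdac9 at -0.17, 0.0321, by edgeR), and left-out libraries 4 to 3057 genes and 0 to 4 members. For stage averaged over arms, where 162 genes and 0 members were called, DESeq2 called 704 genes and 1 member, voom 6358 genes and 5 members, the block 96 genes, the GC correction 342 genes, the block with GC correction 569 genes and 1 member (Hdac9, adjusted p = 0.0283 by edgeR), and left-out libraries 14 to 2262 genes and 0 to 2 members; under the block Slc16a7 had an adjusted p of 0.0585. For ABX before extinction, 1 gene, the counts were 2 with no filter, 15 in DESeq2, 5 with block and GC correction, and 1 to 28 without single libraries. For ABX after extinction, 3 genes, they were 182 in DESeq2, 306 in voom, 59 with GC correction, 417 with both, and 0 to 13 without single libraries. For stage in ABX, 16 genes, they were 282, 465 (with 1 member), 77, 189, and 3 to 237. For stage in non-ABX, 0 genes, they were 2 with no filter, 19 in DESeq2, 3191 in voom (with 1 member), 2 with GC correction, 31 with both, and 0 to 1. For the interaction, 0 genes, DESeq2 called 4. The cause of these shifts was not tested.

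Values that turned sign are given here, small ones and some of larger size without correction. With the GC correction, and with it and the replicate block, ABX values averaged over stages were 0.063 and 0.060 for Hdac11, -0.040 and -0.052 for Hdac8, 0.044 and 0.049 for Hdac10, 0.018 and 0.016 for Hmg20b and 0.016 and 0.014 for Kat2a. Before extinction they were 0.064 and 0.057 for Hdac11, -0.025 and -0.023 for Hdac3, -0.030 and -0.052 for Hdac8 and -0.069 and -0.11 for Hdac9, which was -0.010 under the block alone and -0.015 in voom, where Hdac3 was -0.000948. After extinction they were 0.062 and 0.062 for Hdac11, 0.00834 and 0.00827 for Hdac7 and -0.051 and -0.053 for Hdac8. Stage values in the same 2 fits were 0.019 and 0.019 for Hdac2 and 0.095 and 0.085 for Hdac8 averaged over arms. They were 0.025 and 0.024 for Hdac2 and 0.084 and 0.084 for Hdac8 in ABX libraries, and 0.013 and 0.014 for Hdac2, 0.025 and 0.027 for Hdac3 and -0.018 and -0.011 for Hdac7 in non-ABX libraries. With the GC correction alone Hdac7 was -0.00139 for stage averaged over arms. With both, Hdac11 was -0.000434 and Hdac6 -0.000400 there, and -0.00253 and -0.00313 in non-ABX libraries. In voom Hdac3 was -0.00914 for stage averaged over arms, and Hdac4 0.12 and Hdac8 -0.040 in non-ABX libraries. Interaction values were 0.012 and 0.010 for Hdac2 in the 2 fits, and -0.00218 for Hdac11 and -0.00204 for Hdac6 with the GC correction. Without single libraries the ABX values that turned ranged over -0.00761 to 0.064 (Hdac3) and -0.035 to 0.092 (Hdac9) before and -0.000768 to 0.086 (Hdac8) after extinction. Stage values ranged over -0.18 to 0.016 (Hdac2), -0.055 to 0.016 (Hdac3), -0.00216 to 0.077 (Hdac8), -0.10 to 0.15 (Hdac4), -0.046 to 0.44 (Hdac5) and -0.00643 to 0.30 (Hdac7) in non-ABX libraries. They ranged over -0.033 to 0.083 (Hdac1) and -0.10 to 0.00628 (Hdac8) in ABX libraries, and -0.041 to 0.021 (Hdac1) and -0.038 to 0.022 (Hdac8) averaged over arms. Interaction values ranged over -0.13 to 0.066 (Hdac2), -0.16 to 0.32 (Hdac5), -0.026 to 0.28 (Hdac7), -0.00746 to 0.077 (Hdac6) and -0.039 to 0.15 (Hdac11). Of the other member values 498 kept direction and call and 15 gained a call, or 1005 and 10 without single libraries. Hdac1, with the fewest counts, is the member most limited by depth.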
